A study of Mus musculus with 2 samples.

Results

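MHC class II molecules present peptides to CD4+ T cells, and in the thymic cortex their display by cortical thymic epithelial cells (cTECs) selects the T cells that become CD4+. Each molecule is a heterodimer of an alpha and a beta chain that is assembled on the invariant chain, cleared of it by lysosomal proteases, and loaded with peptide by the DM heterodimer, which the DO heterodimer restrains. The transactivator CIITA switches the genes on through factors bound at a shared promoter module, and the ubiquitin ligase MARCHF8 removes finished molecules from the cell surface. The genes described here number 10: 9 are among the 19938 genes with a probe set of their own on the arrays, and H2-DMb1 shares one. They were chosen by symbol: H2-Aa, H2-Ab1 and H2-Eb1 (chains of the A and E molecules), H2-DMa and H2-DMb1 (DM), H2-Oa and H2-Ob (DO), Cd74 (invariant chain), Ciita and Marchf8.

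Expression was measured on 2 arrays of amplified RNA from cTECs of NOD mice, a strain that develops autoimmune diabetes, at day 7. The Tg array held cTECs from 7 mice that carry Aire under the promoter of the thymoproteasome subunit β5t (Psmb11), which is active in the cortex, in a semi-knockin strain. The non-Tg array held cTECs from 5 control mice on the same NOD background, and neither label names another allele or treatment. The animal numbers were read as pools, so each group was 1 sample with no replicate error, and no p-value could be given. The log2 level of Aire was 7.33 in Tg against 6.06 in non-Tg, a log2 difference of 1.28, which goes with the labels, and Psmb11 had 10.51 and 10.15. Cortical identity was checked with 14 marker genes, all of which passed the filter on low values (a level that reaches the array's median over probe sets, on 1 array or both). Among them were Ccl25 (a chemokine of cTECs) at 12.64 in Tg against 12.58 in non-Tg, and Krt8 (a simple epithelial keratin) at 12.62 and 12.57.

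The promoter module of class II genes is shown first, because it is what the chain genes of this family are known to share. It holds an X box, read by the RFX factors, and downstream of it a Y box, the reversed CCAAT element read by NF-Y, at a nearly fixed distance. CIITA itself does not bind DNA but docks on these factors. Promoter windows from 250 bases before to 50 bases after the gene start were available for 7 of the 10 genes (RefSeq, mouse build GRCm38.p6, the reference strain and not NOD). They were searched on both strands for the X core AGNNAC, for the Y core ATTGG, and for ATTGG starting 30 to 38 bases after AGNNAC on the same strand. The ordered pair was present on the strand of the gene in 4 of the 7 genes, H2-Eb1, H2-Oa, H2-Ob and H2-DMb1, and in 0.834% of all 32851 windows (1.62% on either strand). Alone, AGNNAC was on the strand of the gene in 69.9% of all windows and ATTGG in 22.1% (90.4% and 37.4% on either strand). It is thus the order and distance that narrow the pattern. The stretches around it are printed 5′ to 3′ on the strand of the gene, with the X and Y cores in capitals; H2-Eb2, a second E beta gene that is not among the 10, is added because it is taken up below, and H2-Aa because it holds the Y core with a shortened X core.
H2-Eb1, chr17:34305771-34305816, plus strand: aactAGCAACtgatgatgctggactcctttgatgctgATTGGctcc
H2-Eb2, chr17:34325538-34325583, plus strand: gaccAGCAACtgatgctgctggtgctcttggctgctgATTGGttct
H2-DMb1, chr17:34153092-34153138, plus strand: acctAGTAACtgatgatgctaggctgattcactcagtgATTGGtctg
H2-Ob, chr17:34238813-34238856, plus strand: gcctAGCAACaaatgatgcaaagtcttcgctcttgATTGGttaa
H2-Oa, chr17:34092298-34092344, plus strand: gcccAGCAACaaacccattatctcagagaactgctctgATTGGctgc
H2-Aa, chr17:34287863-34287909, minus strand: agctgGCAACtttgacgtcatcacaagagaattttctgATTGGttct

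The spacing from the start of the X core to the start of the Y core was 33 bases in H2-Eb1 and H2-Eb2, 34 in H2-DMb1 and H2-Oa, and 31 in H2-Ob. The Y core began 43 bases before the gene start in H2-Oa, 48 in H2-Aa, 57 in H2-Ob, 59 in H2-Eb1, 61 in H2-DMb1 and 100 in H2-Eb2. H2-Aa did not hold AGNNAC at that distance, but it held GNAAC 33 bases before its Y core. That shorter pattern, chosen after the promoters were seen, was found on the strand of the gene in 5 of the 7 genes and in 0.743% of all windows. In the windows of H2-DMa, which has 2 annotated starts, and of Marchf8 the AGNNAC and ATTGG pair was on neither strand, which says only that these letters are not there. In the H2-Eb1 window a further AGNNAC and ATTGG pair lay on the opposite strand.

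Levels of the class II genes are given as deposited log2 values, and every difference is Tg minus non-Tg on that scale. Each of 9 genes had 1 probe set of its own. H2-DMb1 had only a probe set that is also annotated to its closely related neighbour H2-DMb2, so its value stands for both and is left out of counts. All 9 passed the filter on both arrays, and 0 of them were 2-fold apart, against 1.17% of the 11422 genes past the filter. At 1.5-fold (a log2 difference of 0.585) the count was again 0, against 7.86% of all genes. With 9 genes that background comes to less than 1 gene, so a count of 0 does not set the class II genes apart. Their median difference was 0.06, with 6 above 0 and 3 below, beside a median of 0.01 over all genes past the filter.

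**Figure D1:**
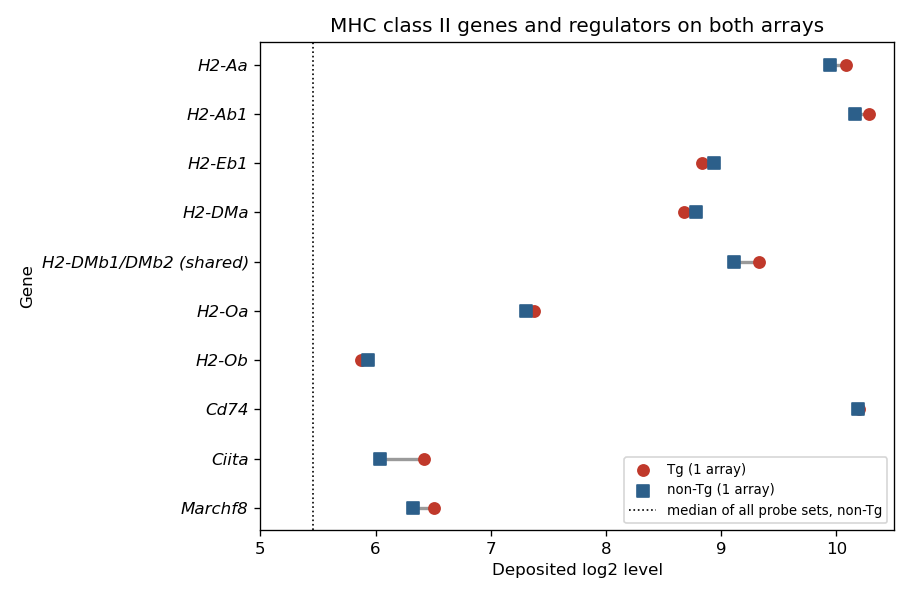
Deposited log2 level (x axis) of each class II gene and regulator (y axis) on the Tg array (circles) and the non-Tg array (squares), joined by a line; there is 1 array per group and so no error bar. The symbols of most genes nearly touch, and the longest line is that of Ciita, from 6.04 in non-Tg to 6.42 in Tg.

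The classical A molecule, the only class II molecule that NOD mice display, had both chains slightly higher in Tg. H2-Aa, the A alpha chain, had a level of 10.08 in Tg against 9.94 in non-Tg, a difference of 0.14 or 1.10-fold. H2-Ab1, the A beta chain, had 10.28 and 10.16, a difference of 0.12 or 1.09-fold. The differences of the 2 partner chains lay 0.02 apart. Differences at least as large as that of H2-Aa were seen in 60.7% of all genes past the filter, and as large as that of H2-Ab1 in 65.6%.

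The E molecule is incomplete in NOD mice, which carry a deletion in the promoter of the E alpha gene. H2-Eb1, the E beta chain, had a level of 8.84 in Tg against 8.94 in non-Tg, a difference of -0.10. H2-Ea, the E alpha gene, had 4.85 in Tg against 4.82 in non-Tg and did not pass the filter, so on both arrays the beta chain was above the filter and its partner was not. H2-Eb1 was thus slightly lower in Tg while both A chains were slightly higher, and the gap between H2-Eb1 and H2-Ab1 was -0.22.

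The scale for such gaps is the disagreement between 2 probe sets of 1 gene. Over the 658 genes that had more than 1 probe set past the filter, it gave an SD of 0.302 per probe set. Both probe sets of a gene read the same RNA, so this SD leaves out variation between mice, pools and amplifications, and the error of a difference can be larger. The differences of 9 of the 10 probe sets, the shared DMb one included, lay within 0.302 of 0, and that of Ciita did not. In bulk RNA, fewer cells of a type and less RNA per cell cannot be told apart.

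Among the genes of the peptide exchange machinery, the chains of DM differed in sign. H2-DMa, the DM alpha chain, had a level of 8.67 in Tg against 8.79 in non-Tg, a difference of -0.11. The probe set shared by H2-DMb1 and H2-DMb2, the DM beta chains, had 9.33 and 9.11, a difference of 0.21 or 1.16-fold. The gap between the alpha and beta chain values was -0.33, which is 0.77 of the SD that 2 probe sets would give. How much of the shared value comes from each of the 2 beta genes cannot be read from this probe set.

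The chains of DO, the modulator of DM that is best known from B cells and medullary epithelium, lay closest to 0 of the heterodimers. H2-Oa, the DO alpha chain, had a level of 7.37 in Tg against 7.31 in non-Tg, a difference of 0.06. H2-Ob, the DO beta chain, had 5.87 and 5.94, a difference of -0.07. H2-Ob was above the filter on both arrays, but close to it (the filter was 5.43 for Tg and 5.45 for non-Tg), where low values are compressed and a small change is harder to see.

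Cd74, the invariant chain that escorts class II molecules to the endosome, had the smallest difference of the 10. The level was 10.20 in Tg against 10.19 in non-Tg, a difference of 0.01, and 96.9% of all genes past the filter had a difference at least as large. Under a centring of the differences that depends on level, its sign turned to a difference of -0.01.

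The 2 regulators were both higher in Tg. Ciita, the transactivator of the class II genes, had a level of 6.42 in Tg against 6.04 in non-Tg, a difference of 0.38 or 1.30-fold, the largest of the 10. Differences at least as large were seen in 20.0% of all genes past the filter. The difference of Ciita exceeded that of H2-Ab1 by 0.26 and that of Cd74 by 0.37, which are 0.61 and 0.87 of the SD that 2 probe sets would give. The probe set covers the gene as a whole, so the alternative first exons of Ciita used by different cell types could not be separated. Marchf8, the ligase that tags surface class II for turnover, had 6.51 and 6.32, a difference of 0.18 or 1.14-fold, which 50.7% of all genes past the filter equalled or exceeded.

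**Figure D2:**
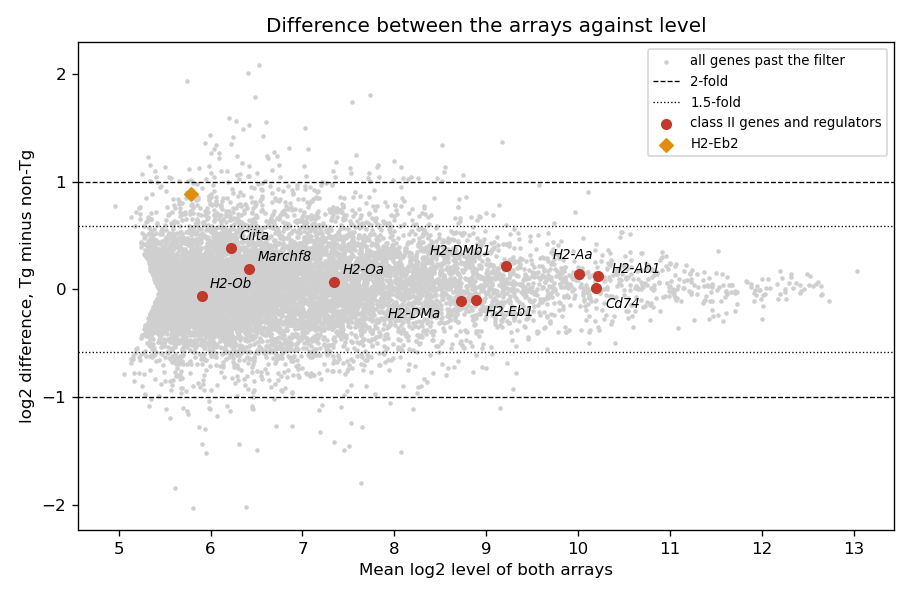
Difference between the arrays (y axis, log2 Tg minus non-Tg) against the mean log2 level of both arrays (x axis) for all genes past the filter (grey), the class II genes and regulators (red) and H2-Eb2 (orange diamond), with lines at 2-fold (dashed) and 1.5-fold (dotted). The red points all lie between the 1.5-fold lines, from -0.11 to 0.38, within the cloud of other genes, and H2-Eb2 lies above the 1.5-fold line at 0.89.

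A class II gene outside the 10 differed more than any of them. H2-Eb2, an E beta gene next to H2-Eb1, had a level of 6.23 in Tg against 5.34 in non-Tg, a difference of 0.89 or 1.85-fold. It was above the filter on the Tg array only, and passing through 1 array favours genes that differ. It did not reach 2-fold. Differences at least as large were seen in 1.91% of all genes past the filter. The promoters of H2-Eb1 and H2-Eb2 both hold the X and Y cores 33 bases apart, as printed above, while their differences were -0.10 and 0.89. Whether the module bears on either value was not tested, and the sequences are of the reference strain and not NOD. The full windows of these 2 genes, in which capitals again mark the X and Y cores, are given because the genes are neighbours with like modules.
H2-Eb1, chr17:34305617-34305916, plus strand: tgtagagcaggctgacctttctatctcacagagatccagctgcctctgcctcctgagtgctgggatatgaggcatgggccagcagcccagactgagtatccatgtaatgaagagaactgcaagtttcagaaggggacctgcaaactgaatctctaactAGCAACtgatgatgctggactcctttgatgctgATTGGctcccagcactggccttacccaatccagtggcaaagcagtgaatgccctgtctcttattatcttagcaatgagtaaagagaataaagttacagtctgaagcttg
H2-Eb2, chr17:34325425-34325724, plus strand: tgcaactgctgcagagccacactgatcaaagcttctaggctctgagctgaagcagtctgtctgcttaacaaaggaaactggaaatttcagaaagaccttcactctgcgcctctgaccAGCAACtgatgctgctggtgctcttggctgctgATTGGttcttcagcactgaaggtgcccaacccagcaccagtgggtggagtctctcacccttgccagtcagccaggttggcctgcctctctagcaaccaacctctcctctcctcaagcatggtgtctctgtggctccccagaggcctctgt

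The class II chain genes lie together with the class I peptide supply genes, and this stretch was read in RefSeq order from H2-Oa to Notch4. Of the 27 annotated genes in it, 19 had a value and 15 passed the filter, 10 with a difference above 0 and 5 below, the shared DMb value included. Of all genes past the filter, 50.6% lay above 0. The 8 genes of the stretch past the filter that are not among the 10 had a median difference of 0.23, beside 0.01 over all genes past the filter. Of these 8, 2 were 1.5-fold apart, against 7.86% of all genes past the filter, a count too small to set them apart. H2-Eb2, above the filter on the Tg array only, was 1 of them. The other gene beyond 1.5-fold was Tap1, a chain of the peptide transporter, at 7.17 in Tg against 6.33 in non-Tg, a difference of 0.84 or 1.79-fold. Tap2, its partner chain, had a difference of 0.12, and the immunoproteasome genes Psmb9 and Psmb8, which flank Tap1, had 0.23 and 0.22. Signs changed along the stretch: H2-DMa lay below 0 between Brd2 at 0.33 and the DMb value, and H2-Eb1 lay below 0 between H2-Aa and H2-Eb2.

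**Figure D3:**
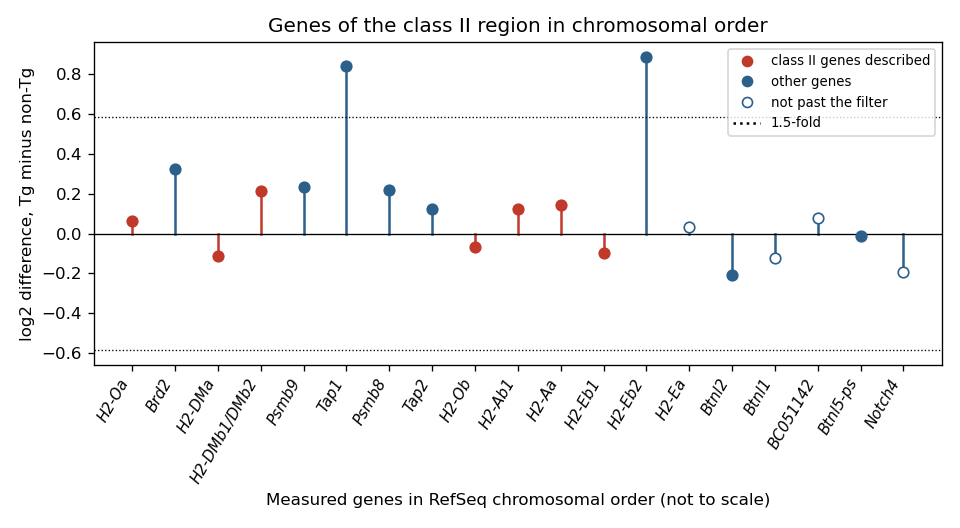
Difference between the arrays (y axis, log2 Tg minus non-Tg) for the measured genes from H2-Oa to Notch4 in chromosomal order (x axis, not to scale); red marks the class II genes described, blue the other genes, open symbols those not past the filter, and dotted lines 1.5-fold. Tap1 at 0.84 and H2-Eb2 at 0.89 stand above the 1.5-fold line, and the red genes lie on both sides of 0.

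The factors that act at the class II promoter had differences in both directions. Of 12 genes for promoter factors and CIITA partners, 12 passed the filter, 6 lay above 0 and 6 below, and 0 were 1.5-fold apart, against 7.86% of all genes past the filter, which for 12 genes comes to less than 1. The RFX subunit genes Rfx5, Rfxap and Rfxank, which encode the complex at the X box, had differences of -0.28, -0.33 and 0.13. The NF-Y subunit genes Nfya, Nfyb and Nfyc had 0.06, -0.44 and -0.38, and a second, dimmer probe set of Nfyc had -0.30. The coactivator and acetyltransferase genes Crebbp, Ep300 and Kat2b had 0.31, 0.40 and 0.55, and Smarca4, also on this list, had -0.12. The X box factor genes Creb1 and Atf1 had 0.44 and -0.09. The list median was -0.01, beside 0.01 over all genes past the filter.

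Genes that act upstream of Ciita, repressors included, were measured for 11 of 12 on the list, of which 8 passed the filter. At 1.5-fold, 1 was higher in Tg, where 4.74% of all genes past the filter were, and 1 was lower, where 3.13% were. Ifngr1, the ligand-binding chain of the interferon gamma receptor, had a level of 8.63 in Tg against 9.37 in non-Tg, a difference of -0.74. Irf2, an interferon regulatory factor, had 7.83 and 7.23, a difference of 0.60. Ifngr2, the second receptor chain, had 0.28, the receptor kinase genes Jak1 and Jak2 0.20 and 0.25, and Irf1, which drives the interferon-responsive Ciita promoter, 0.14. A second, dimmer probe set of Irf1 had 0.34. Irf8 and Socs1, which also passed the filter, had -0.11 and -0.08. Of the 11 measured genes, 7 differences lay above 0, 3 below and 1 at 0. Ifngr1 and Ciita thus lay on opposite sides of 0, while the other receptor chain gene lay on the side of Ciita.

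For the ligases and their partners, 8 genes were measured and 6 passed the filter. Marchf1 and Marchf9, relatives of Marchf8, did not pass, with levels of 4.76 and 5.27 in Tg. Cd83, a surface protein that protects class II from MARCHF8 on cTECs, had a level of 8.49 in Tg against 8.48 in non-Tg, a difference of 0.01. Among targets of these ligases, Cd86 (a costimulatory ligand) had 5.55 in Tg against 4.83 in non-Tg, a difference of 0.72, and was above the filter on the Tg array only. Tfrc (the transferrin receptor) had 7.49 and 8.20, a difference of -0.71. The list held 1 gene 1.5-fold higher (4.74% of all genes past the filter were) and 1 lower (3.13% were), counts too small to set it apart, and its median over measured genes was 0.03.

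The proteases that trim the invariant chain and antigens also held 1 gene on each side of 1.5-fold, where 4.74% of all genes past the filter were higher and 3.13% lower. Of 10 measured genes, 9 passed the filter, and 8 differences lay above 0. Ctss, cathepsin S, the invariant chain protease of dendritic cells and B cells, had a level of 6.71 in Tg against 5.94 in non-Tg, a difference of 0.77. Lgmn, an asparaginyl endopeptidase, had 7.11 and 7.87, a difference of -0.76. Ctsl, cathepsin L, the invariant chain protease of cTECs, had 12.57 and 12.43, a difference of 0.14, and Sppl2a, which cleaves the last membrane stub of the invariant chain, had 0.25. The median over measured genes was 0.12.

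**Figure D4:**
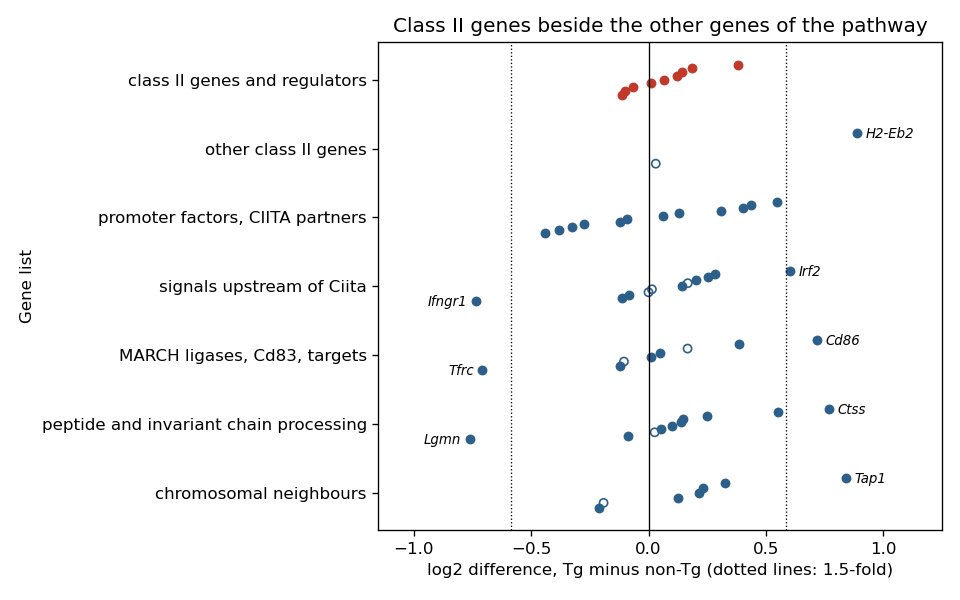
Difference between the arrays (x axis, log2 Tg minus non-Tg) for each measured gene of the class II genes and regulators (red) and of 6 further lists (blue), 1 point per gene, with open points for genes not past the filter and dotted lines at 1.5-fold. Red points span -0.11 to 0.38, and the genes beyond 1.5-fold are named.

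Class II RNA can also come from dendritic cells, macrophages, B cells and medullary epithelium, so their markers were read beside it. Of 10 dendritic cell markers, 3 passed the filter, 6 differences lay above 0 and 1 below, and the summed level of the list on a linear scale was 397 in Tg against 398 in non-Tg. Such sums include markers not past the filter, and the brightest marker, Ccr7 in this list, weighs most in them. Ccr7, a chemokine receptor that thymocytes also carry, had 6.55 in Tg against 6.78 in non-Tg, and Batf3, a factor of cross-presenting dendritic cells, 5.70 and 5.67. The difference below 0 was that of Ccr7, at -0.23, and the highest was that of Flt3, a cytokine receptor of dendritic cells and their precursors, at 0.38 (5.60 and 5.22). Flt3 was above the filter on the Tg array only. Itgax, Clec9a and Clec10a were the 3 markers of this list under the floor, the 25th percentile of all values, on both arrays, which sets their differences to 0. Of 10 macrophage markers, 2 passed, 7 differences lay above 0 and 2 below, and the sums were 374 and 356. C1qa, a complement component, had 5.40 and 5.71, above the filter on the non-Tg array only, and Cd14, a receptor for bacterial lipopolysaccharide, had 5.52 and 5.51. Lyz2 (lysozyme), which did not pass the filter, had the highest difference of that list, 0.36, with its non-Tg value raised to the floor. Of 8 measured B cell markers, 2 passed, with sums of 261 and 281, and the highest were Ebf1 at 5.57 and 5.93 and Pax5 at 5.53 and 5.57, both early B cell factors.

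Epithelial and thymocyte markers differed between the arrays too. All 14 cortical markers had differences above 0, with a median of 0.13, a maximum of 0.57 and summed levels of 30747 in Tg against 28697 in non-Tg. Of all genes past the filter, 50.6% lay above 0, with a median of 0.01. Over the brighter genes past a filter at the 75th percentile the median was 0.04. Beside the cortical median, H2-Aa and H2-Ab1 had 0.14 and 0.12. The 9 class II genes and regulators with a probe set of their own had a median of 0.06. They ran from -0.11 (H2-DMa) to 0.38 (Ciita), and Cd74 had 0.01. Of 10 measured medullary markers, 8 passed, with 4 above 0 and 6 below and sums of 2932 and 2634. Krt5, a basal keratin, had 10.73 in Tg against 10.39 in non-Tg, and the epithelial factor gene Trp63 had 9.13 and 9.25. All 11 measured thymocyte markers passed, with 3 above 0 and 8 below, a median of -0.07 and sums of 5526 and 6284. Both arrays held RNA of thymocytes, which carry little class II in mice. Rag1, the recombinase gene, had 10.89 in Tg against 10.96 in non-Tg, and Cd3g, a T cell receptor component, 9.94 and 10.23. Thy1, a surface protein of T cells, had 8.89 and 9.57, a difference of -0.68, the only one of the measured markers of the 8 cell types beyond 1.5-fold.

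Stromal markers were read too. For endothelium, 4 of 6 markers passed, with 3 differences above 0 and 3 below and sums of 594 and 582. Cdh5 and Pecam1, both junction proteins of vessels, had differences of -0.16 and 0.48. For fibroblasts, 4 of 7 passed, with 4 differences above 0 and 3 below and sums of 783 and 658. Dcn and Postn, both matrix genes and the brightest of the list, weigh most in the sums and had 0.28 and 0.51. The part of any of these cells in the class II values was not tested.

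**Figure D5:**
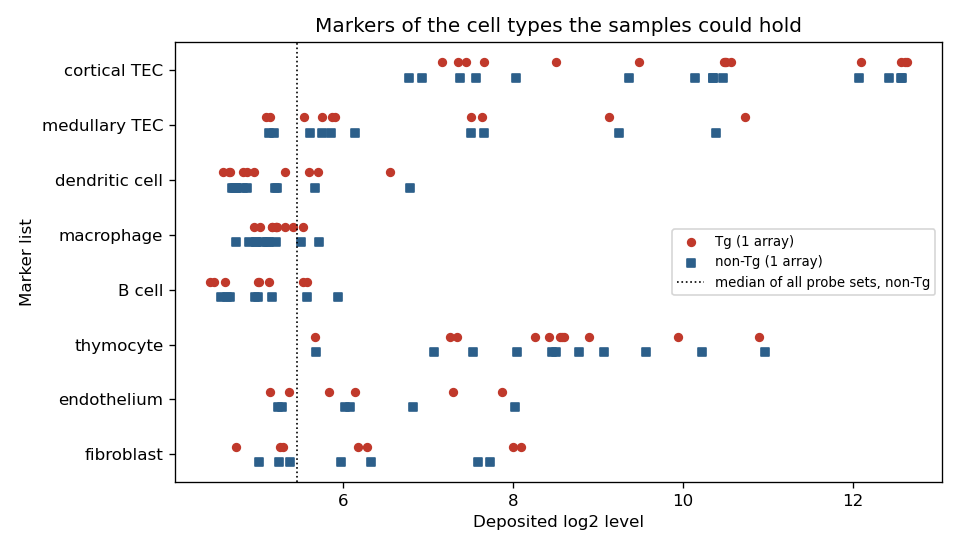
Deposited log2 level (x axis) of the measured markers of 8 cell types (y axis), 1 point per gene on the Tg array (circles) and the non-Tg array (squares), with the median of all non-Tg probe sets as a dotted line. Cortical markers lie right of the line on both arrays, and most markers of dendritic cells, macrophages and B cells lie left of it on both.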

How the data were processed

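Per the labels' protocols, cDNA was amplified from 400 pg of total RNA (Ovation One-Direct), and 5.5 µg was fragmented and labelled with biotin. The deposited values are log2 levels, 1 per probe set and array; the scale was inferred from their range (4.22 to 13.7 in Tg, 4.22 to 13.6 in non-Tg), with the authors' background correction and normalization not given in the sources used here. Having 1 array per group limits the precision.

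Of 28856 probe sets, 21789 had 1 symbol in GEO's platform annotation, 1621 several and 5446 none. The brightest single-symbol probe set stood for each of 19938 genes. Values under the 25th percentile of both arrays were raised to it, and 11422 genes that reached the 50th percentile on at least 1 array passed the filter. A 2-fold and a 1.5-fold rule of size replaced a test. The 2-fold rule was tested on simulated data, in genes brighter than Ciita, Marchf8 and H2-Ob. The 1.5-fold rule was not tested in this way, and no rate of false calls was computed. All 10 members were named; of each pathway list, genes 1.5-fold apart or else the 2 with the highest mean level, and of each marker list those 2. Rfx5, Rfxap, Rfxank, Nfya, Nfyb, Nfyc, Kat2b, Creb1, Ep300, Smarca4, Ifngr2, Irf1, Irf8, Socs1, Jak1 and Jak2 were named after their values were seen. So were Cd83, Marchf1, Marchf9, Ctsl, Sppl2a, Tap2, Psmb8, Psmb9, Brd2, H2-Ea, Lyz2, Thy1 and 4 dendritic cell markers (Itgax, Clec9a, Clec10a and Flt3). The members and lists were chosen with earlier results of these data known. Listed genes with no value of their own were not analysed here. Python 3.11.15, numpy 2.4.6, pandas 2.3.3, statsmodels 0.14.6 and matplotlib 3.10.9 were used. The alternatives were array centring, quantile normalization, other floors and filters, probe set choice and a level-dependent centring.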

Additional observations from a re-analysis of the deposited data

How the results depend on the processing

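Under 9 alternatives, the level-dependent centring being chosen after the data were seen, the 10 gene differences and the member median each moved by less than the probe set SD of 0.302, and no count of genes moved by over 1.5 times. Only array centring, quantile normalization and the level-dependent centring could move a gene difference. Each gene had 1 probe set, above every floor used, so the other floors, filters and probe set choices returned the same value. The sign of 1 difference changed, that of Cd74, to -0.01 with level-dependent centring. The member median of 0.06 ranged from 0.03 (quantile normalization) to 0.09, and H2-Oa from 0.02 (quantile normalization) to 0.09, each lowest value being over 1.5 times smaller than the reported one. Ciita ranged from 0.37 to 0.40, H2-Aa from 0.12 to 0.16, H2-Eb1 from -0.14 to -0.08 and H2-DMa from -0.16 to -0.09. The count of members 1.5-fold apart was 0 in each setting, while that over all genes ran from 599 (filter at the 75th percentile, which 6 members pass) to 935 (several-symbol probe sets counted). No paired analysis was possible because each group had 1 array. A replicate could not be left out for the same reason, and change in dim genes near the floor is compressed.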
